A study of Mus musculus with 12 samples.

Results

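A group of 10 genes that silence chromatin and retrotransposons was followed in fetal mouse germ cells and in the somatic cells around them: Tex19.1, Trim28, Setdb1, Hells, Ehmt1, Ehmt2, Suv39h2, Cbx1, Cbx3 and Cbx5. They were taken by gene symbol, whatever their values, and all 10 were among the 12845 genes of both deposited tables. The RNA came from gonads of embryos at E13.5, counted in days after mating, of the strain labelled Oct4GFPxICR, sired by males with a green fluorescent protein (GFP) reporter under control of Oct4 (Pou5f1), a gene active in early germ cells. Flow sorting divided each sex into GFP-positive primordial germ cells (PGCs), which give rise to eggs and sperm, and GFP-negative soma. Every group carried the same reporter cross, and there were 12 libraries, with 3 for the PGCs and 3 for the soma of each sex. The GFP-negative fraction is a mixture of all remaining gonadal cells and of any germ cell that the gate missed. The title of the series names hypertranscription, a raised output of RNA per cell, in PGCs as its question. The labels do not say whether the replicates of a group came from separate litters, so p-values measure only the spread between these libraries.

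The members take part in the silencing of chromatin or of retrotransposons, at different points. KRAB zinc finger proteins bind retrotransposon sequences and recruit TRIM28 (KAP1), which brings in SETDB1, a methyltransferase for lysine 9 of histone H3 (H3K9). EHMT1 (GLP) and EHMT2 (G9a) form the heterodimer that places H3K9 dimethylation, and SUV39H2 places the trimethylation of constitutive heterochromatin. CBX5 (HP1 alpha), CBX1 (HP1 beta) and CBX3 (HP1 gamma) are the heterochromatin protein 1 (HP1) family, whose chromodomains bind methylated H3K9. HELLS (LSH) is a SNF2-family chromatin remodeller needed for DNA methylation of repeats, and TEX19.1 is a mammal-specific germ line protein that limits retrotransposons. Fetal PGCs erase most of their DNA methylation, and in mouse several of these proteins are known to hold retrotransposons in check during that period.

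The promoters of the members with the largest excess in germ cells, and of Setdb1, are shown because they differ in sequence features that the choice of genes did not use. Each is the RefSeq window from 250 bases before to 50 bases after the annotated start, on build GRCm38.p6, read 5′ to 3′ on the strand of the gene. Tex19.1 lies at chr11:121145893-121146192 on the plus strand, Hells at chr19:38930740-38931039 on the plus strand, Suv39h2 at chr2:3474937-3475236 on the minus strand and Setdb1 at chr3:95357153-95357452 on the minus strand. Capitals mark matches to the core E2F motif TCCCGC or its other strand GCGGGA, and to the TATA motif TATAAA or its other strand TTTATA.
Tex19.1: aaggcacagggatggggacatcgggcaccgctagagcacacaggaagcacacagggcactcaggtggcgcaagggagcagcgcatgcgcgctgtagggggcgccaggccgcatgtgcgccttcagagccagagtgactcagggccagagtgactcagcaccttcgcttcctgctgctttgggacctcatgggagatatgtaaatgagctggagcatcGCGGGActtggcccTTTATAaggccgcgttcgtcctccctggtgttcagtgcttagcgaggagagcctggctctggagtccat
Hells: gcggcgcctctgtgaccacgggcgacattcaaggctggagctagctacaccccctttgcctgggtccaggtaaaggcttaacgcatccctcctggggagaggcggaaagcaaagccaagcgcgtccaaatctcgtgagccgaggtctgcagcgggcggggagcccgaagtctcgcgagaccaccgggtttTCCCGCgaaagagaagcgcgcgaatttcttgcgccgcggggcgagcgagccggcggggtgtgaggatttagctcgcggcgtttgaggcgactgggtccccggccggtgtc
Suv39h2: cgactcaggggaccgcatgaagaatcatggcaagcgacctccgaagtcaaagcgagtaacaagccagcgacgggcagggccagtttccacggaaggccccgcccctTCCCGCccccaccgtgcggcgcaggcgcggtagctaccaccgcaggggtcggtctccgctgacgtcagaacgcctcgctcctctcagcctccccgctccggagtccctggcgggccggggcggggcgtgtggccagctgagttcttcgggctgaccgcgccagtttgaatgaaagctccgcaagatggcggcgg
Setdb1: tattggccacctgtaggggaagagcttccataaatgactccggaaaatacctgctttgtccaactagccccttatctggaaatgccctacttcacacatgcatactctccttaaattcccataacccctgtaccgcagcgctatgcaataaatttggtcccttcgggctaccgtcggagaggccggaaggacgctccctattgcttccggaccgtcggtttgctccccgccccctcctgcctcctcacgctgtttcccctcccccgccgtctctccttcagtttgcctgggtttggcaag

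The core E2F motif, searched on both strands, was present in a promoter of 8 of the 10 members, namely Cbx1, Cbx5, Ehmt1, Ehmt2, Hells, Suv39h2, Tex19.1 and Trim28. Counted by promoter it was present in 8 of the 13 promoters of members, some of which have more than 1, and in 35.9% of the 12536 promoters of genes in the tables. Setdb1 and Cbx3 had no match in these windows. The longer form TTTCCCGC was found in Hells and in no other member, against 2% of those promoters, and it contains the core motif. TATAAA occurred in Tex19.1 only, as TTTATA beginning 19 bases before the annotated start, against 6.82% of promoters. The E-box CACGTG was present for Cbx5 and Ehmt2, against 9.91% of promoters, and the octamer ATGCAAAT for 0 members, against 1.34%. Motifs were chosen after the sequences had been read, and a match describes letters in a window, not a bound site. The Tex19.1 window held 16 CG dinucleotides and that of Setdb1 15, whereas Hells held 34 and Suv39h2 33, against a median of 21 for the promoters of genes in the tables.

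In the GENCODE vM21 annotation of GRCm38 the members lie on 8 chromosomes. Tex19.1 spans chr11:121146143-121148319 on the plus strand, and no other annotated gene overlaps it, nor does any overlap Hells (chr19:38930915-38971051, plus), Ehmt2 (chr17:34898469-34914052, plus), Cbx3 (chr6:51470360-51483704, plus) or Cbx5 (chr15:103191544-103239816, minus). Trim28 (chr7:12999114-13031035, plus) overlaps Zbtb45 on the opposite strand, Setdb1 (chr3:95323525-95357202, minus) overlaps Cers2, and Suv39h2 (chr2:3455815-3475031, minus) overlaps Dclre1c. Ehmt1 (chr2:24789928-24919614, minus) overlaps 2 provisional gene models on its own strand, and Cbx1 (chr11:96789127-96808640, plus) overlaps 1 processed pseudogene. Cbx3 has 8 annotated pseudogenes elsewhere in the genome. Whether the counting used strand, and how it treated reads shared with these neighbours or copies, is not stated in the sources used here, so the values of Trim28, Setdb1, Suv39h2, Ehmt1, Cbx1 and Cbx3 carry that uncertainty.

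Values are given on 3 scales. CPM values (counts scaled to a common library total) are a gene's share of the reads of a library, computed from whole reads that the deposited per-cell values return. The deposited read depth values are log2 values relative to sequencing depth. Large germ-to-soma differences of members are smaller on that scale than in log2 CPM, most of all for genes with few reads. Small differences can be larger on it than in log2 CPM. Suv39h2, for example, differed by -0.19 between female and male PGCs at mean values of 90.8 and 97.1 CPM. The deposited cell number values are log2 values per cell, scaled by control RNA added in proportion to sorted cells. In sorted bulk samples, fewer cells of a type that expresses a gene and less of its RNA per cell cannot be told apart. Libraries held from 6454322 (female PGC replicate 2) to 24791414 (male soma replicate 2) reads. The per-cell library median was 5.83 ± 0.04 (SD, n = 3) in male PGC, 5.94 ± 0.13 in female PGC, 4.62 ± 0.54 in male soma and 3.74 ± 0.19 in female soma, and male soma replicate 3 stood apart from its group at 5.25 against 4.33 and 4.29. A change counts as called at a Benjamini-Hochberg adjusted p of 0.05 over all 12845 genes in limma.

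The sorted populations carried the markers of their labels. Pou5f1 stood at 759 ± 21.6 CPM (SD, n = 3) in male PGC and 273 ± 52.7 in female PGC, against 1.08 ± 0.485 in male soma and 5.39 ± 3.61 in female soma. Wt1, a gene of somatic gonad cells, stood at 151 ± 17.7 CPM in male soma and 294 ± 64.8 in female soma, against 6.34 ± 1.1 and 3.76 ± 4.26 in male and female PGC. Female soma was uneven: 7 germ cell markers, all detected in each group, summed to 101, 157 and 16.9 CPM in its replicates 1, 2 and 3, which is 2.99%, 4.65% and 0.501% of female PGC, while male soma ranged from 10.4 to 17.5 CPM. The Y-linked gene Ddx3y had 0 reads in female PGC, against 28.5 to 33.9 CPM in male PGC. In female soma replicates 1, 2 and 3 it had 1, 33 and 2 reads (0.111, 5.06 and 0.254 CPM). Xist stood at 1919 to 2162 CPM in female soma but at 1.43 to 15 in female PGC, beside 5.41 to 9.51 in male PGC. Between PGCs of the sexes Xist therefore overlapped, and of these 2 genes only Ddx3y told them apart. The 5 red blood cell markers summed to 17544 to 29477 CPM in female soma and to 3354 to 8553 in male soma. The 4 steroidogenic markers summed to 3335 to 4646 CPM in male soma and 12.7 to 14.3 in female soma, and the 5 stromal markers to 10814 to 12737 and 13510.1 to 15168. In PGC libraries none of these 3 sums exceeded 61.1 CPM. The 8 supporting cell markers summed to 51.2 to 103 CPM in male PGC and 6.12 to 38.6 in female PGC, against 1685 to 1798 in male soma and 641 to 823 in female soma. The part of these admixtures in the values of the members was not tested.

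Per exon base, the members spanned a wide range of levels, and Trim28 led in all 4 groups. Its mean was 391 reads per exon length and library size (RPKM) in male PGC, 215 in female PGC, 164 in male soma and 162 in female soma, above 98.7% of all genes or more in each. In male PGC it was followed by Tex19.1 at 148 RPKM, Ehmt2 at 97.8, Hells at 84.4 and Cbx3 at 79.6, and Ehmt1 was lowest at 11. In female PGC the order was different, with Hells second at 152 RPKM, Tex19.1 at 106 and Setdb1 at 69.2, and Ehmt1 lowest again at 19.9, next to Suv39h2 at 20.6. In soma Ehmt2 and Cbx5 followed Trim28, with 60.1 and 59.2 RPKM in male soma and 58.4 and 64.4 in female soma. Tex19.1 was lowest in both, at 0.286 RPKM in male soma and 1.7 in female soma. These orders depend on the exon lengths used. By share of reads Hells was above Trim28 in female PGC, at means of 1096 and 895 CPM. In male PGC the mean of Tex19.1, 277 CPM, was below those of Hells, Ehmt2, Cbx3, Cbx5 and Setdb1.

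**Figure D1:**
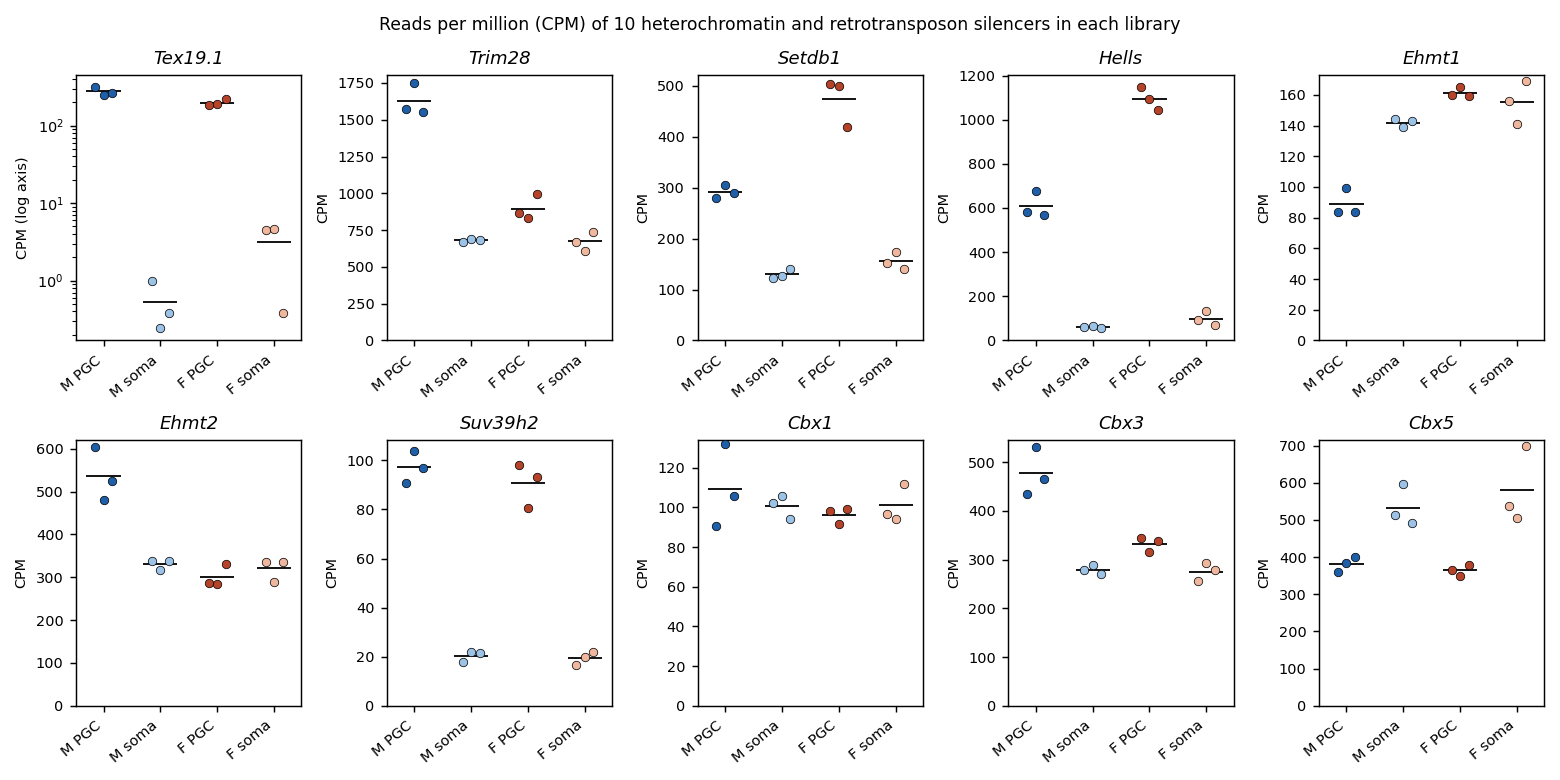
Share of reads (CPM, vertical axis, logarithmic for Tex19.1 and linear from 0 for the others) of the 10 genes in each of 12 libraries, with M for male and F for female, points for libraries and lines for the means of 3. Tex19.1, Hells, Setdb1, Suv39h2, Trim28 and Cbx3 are higher in every PGC library than in every soma library, Cbx5 is lower in every PGC library, and Cbx1 overlaps among all groups.

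The question of the first comparison is which of these silencers are enriched in PGCs relative to the soma of the same sex. On the read depth scale 7 members rose in male PGCs, namely Tex19.1, Hells, Suv39h2, Trim28, Setdb1, Cbx3 and Ehmt2, and 2 fell, namely Ehmt1 and Cbx5. Over all genes 39.1% were called higher and 43.7% lower. In female PGCs 6 members rose, the same ones without Ehmt2, and Cbx5 fell, where 38.7% of all genes were called higher and 42.3% lower. The median difference of the members was 0.86 in males and 0.27 in females, beside medians of -0.06 and -0.05 over all genes.

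Tex19.1 had the largest germ cell excess of the members. Its reads in male PGC replicates 1, 2 and 3 came to 319, 249 and 264 CPM, against 0.983, 0.242 and 0.381 CPM in male soma, which rest on 9, 6 and 7 reads. In female PGC it stood at 184, 190.4 and 221 CPM, against 4.56, 4.6 and 0.381 CPM in female soma, where replicate 3 had 3 reads. No soma library came near a PGC library in either sex. The read depth difference was 6.68 ± 0.39 (log2, SE) in males (adjusted p = 1.13e-09, limma) and 4.89 ± 0.39 in females (adjusted p = 3.84e-08). Among all genes, Tex19.1 included, those differences stood at percentiles of 99.9 and 100 after rounding. Within female soma, Tex19.1 and the germ cell markers were both high in replicates 1 and 2 and low in replicate 3: Tex19.1 there equalled 2.3%, 2.32% and 0.192% of its female PGC mean. With replicate 3 as the only female soma library, a choice made after these values were seen, the female difference was 6.13.

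Hells, the chromatin remodeller, was the next most enriched. Male PGC replicates gave 580.4, 676 and 569 CPM and male soma replicates 61.4, 64 and 55.4. Female PGC replicates gave 1149.7, 1092 and 1044 CPM and female soma replicates 90.9, 133 and 70.4. All 4 groups were separate, with female PGC highest and male soma lowest. The read depth difference was 2.73 ± 0.13 in males and 2.84 ± 0.13 in females. Its soma libraries stood at 9.1% to 10.5% of the PGC mean in males and 6.43% to 12.2% in females.

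Suv39h2, the testis-associated enzyme of H3K9 trimethylation, was several times higher in PGCs of both sexes. It stood at 90.7, 104 and 96.8 CPM in male PGC and 17.9, 21.9 and 21.3 in male soma. In females it stood at 98.3, 80.7 and 93.4 CPM in PGC and 16.7, 19.9 and 22.1 in soma. The PGC groups of the sexes overlapped with each other, as did the soma groups, and no PGC library overlapped a soma library. The read depth difference was 1.79 ± 0.10 in males and 1.66 ± 0.10 in females.

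Trim28 and Setdb1, which act together, were both enriched in PGCs but with opposite sex patterns. Trim28 reached 1576, 1750.3 and 1555 CPM in male PGC and 863, 829.7 and 994 in female PGC, against 670.2, 689.6 and 682 in male soma and 672, 608 and 738 in female soma. Setdb1 reached 279, 306 and 289.6 CPM in male PGC and 503, 499.8 and 419.6 in female PGC, against 123, 127 and 141 in male soma and 152, 174 and 140.5 in female soma. Every PGC library exceeded every soma library for both genes, and the PGCs of the sexes did not overlap. The read depth difference of Trim28 was 1.11 ± 0.07 in males but 0.33 ± 0.07 in females (adjusted p = 0.000696), whereas that of Setdb1 was 1.01 ± 0.07 in males and 1.29 ± 0.07 in females.

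Ehmt1 and Ehmt2, partners in the G9a and GLP heterodimer, moved in opposite directions in male PGCs. Ehmt1 gave 84, 99.3 and 83.8 CPM in male PGC against 144, 139 and 143 in male soma, and Ehmt2 gave 605, 479.7 and 526 against 337, 316 and 337. Neither gene overlapped between these groups. The read depth difference was -0.44 ± 0.07 for Ehmt1 (adjusted p = 5.35e-05) and 0.65 ± 0.08 for Ehmt2. In females Ehmt1 gave 159.6, 165 and 159 CPM in PGC and 156, 141 and 169 in soma, and Ehmt2 gave 287, 284 and 331 in PGC and 336, 289.8 and 336 in soma. Both overlapped between female PGC and soma, and neither passed the test, with differences of 0.05 ± 0.07 (adjusted p = 0.56) and -0.07 ± 0.08 (adjusted p = 0.39).

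The HP1 genes each behaved differently. Cbx3 stood at 434, 532 and 466 CPM in male PGC against 278, 289.8 and 271 in male soma, and at 344, 316 and 339 in female PGC against 256, 292 and 278 in female soma. It rose in both sexes, by 0.70 ± 0.07 in males and 0.22 ± 0.07 in females (adjusted p = 0.00746). Cbx5 stood at 360.0, 384 and 399.6 CPM in male PGC against 512, 596 and 492 in male soma, and at 366, 349.7 and 380.0 in female PGC against 538, 505 and 698 in female soma. All PGC libraries lay below all soma libraries for Cbx5, with a difference of -0.29 ± 0.09 in males (adjusted p = 0.00922) and -0.52 ± 0.09 in females (adjusted p = 0.000113). The male call for Cbx5 was lost without male soma replicate 2 (-0.22, adjusted p = 0.0534) and after centring each library on its median (-0.04, adjusted p = 0.67). Cbx1 ranged from 90.6 to 132 CPM over all 12 libraries, its groups overlapped, and its differences of 0.17 ± 0.10 (adjusted p = 0.11) and -0.05 ± 0.10 (adjusted p = 0.633) did not pass the test.

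**Figure D2:**
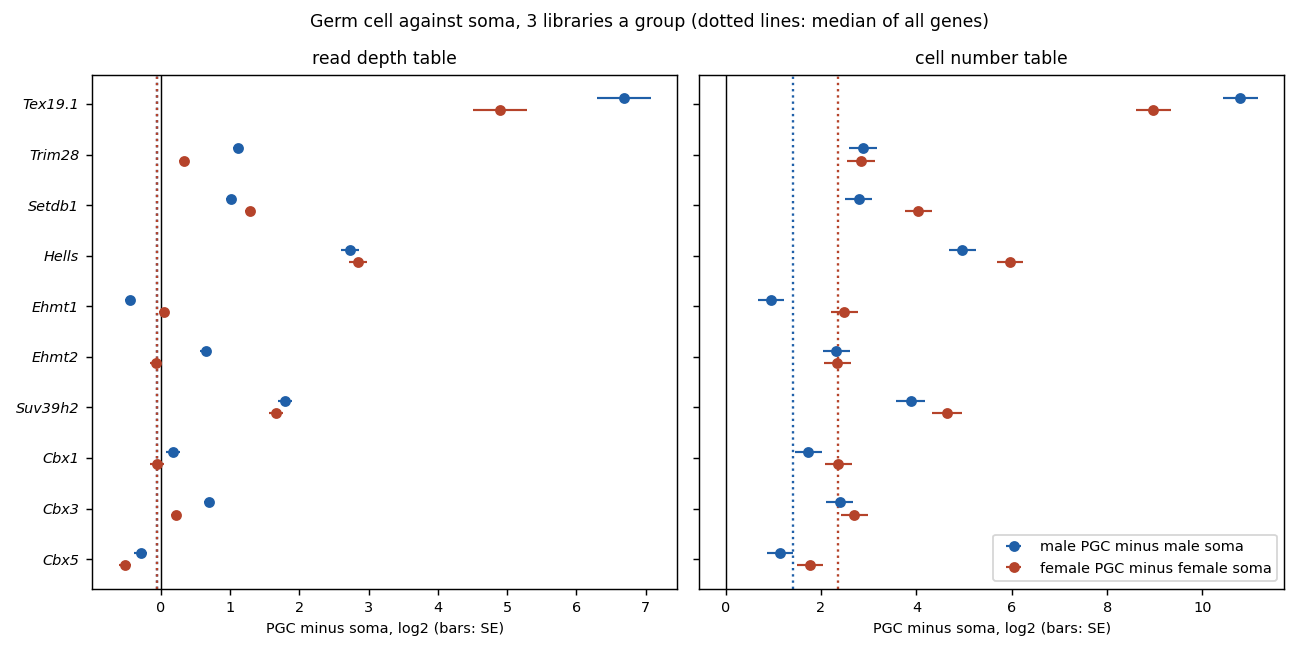
Differences between PGC and soma (log2, horizontal axes, SE bars, 3 libraries per group) for each gene, on the read depth scale at left and per cell at right, males in blue and females in red. Dotted lines give the median over all genes, and at right all 20 member differences lie above 0 while those of Ehmt1 and Cbx5 in males and Ehmt2 and Cbx5 in females lie below the all-gene median of their sex.

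Per cell, every member was higher in PGCs. All 10 rose in males, where 64.0% of all genes were called higher, and all 10 in females, where 77.2% were; the counts are therefore read beside a table in which most genes moved the same way. The shift of the table was a median of 1.42 over all genes in males and 2.36 in females, against -0.06 and -0.05 on the read depth scale. Relative to it, 8 members lay above the median in each sex. The largest per-cell differences were those of Tex19.1 (10.79 ± 0.37 in males and 8.97 ± 0.37 in females), Hells (4.96 ± 0.28 and 5.96 ± 0.28), Suv39h2 (3.88 ± 0.31 and 4.64 ± 0.31) and Setdb1 (2.79 ± 0.28 and 4.04 ± 0.28). Trim28 stood at 2.88 ± 0.30 and 2.84 ± 0.30. Per-cell SE and limma p-values rest on a spread estimated across genes of similar level, not on each gene's own spread. For Tex19.1 the per-cell SD between libraries was 1.06 in male soma and 1.75 in female soma, which its SE does not reflect.

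Genes whose share of reads fell in PGCs still had more RNA per PGC than per somatic cell. Cbx5 had per-cell values of 9.60, 9.64 and 9.66 in male PGC and 8.14, 8.33 and 9.0 in male soma, a difference of 1.14 ± 0.28. Ehmt1 had 7.50, 7.69 and 7.41 in male PGC and 6.31, 6.23 and 7.22 in male soma, a difference of 0.95 ± 0.28 (adjusted p = 0.000985, limma). The groups did not overlap for either gene, although male soma replicate 3, the library with the raised median, came closest to PGC. After median centring of the per-cell values these directions turned, to -0.06 for Cbx5 and -0.26 for Ehmt1 in males and to -0.43 for Cbx5 in females. With that centring 8 members were called higher and 1 lower in males, beside 46.3% and 37.3% of all genes, and 7 higher and 1 lower in females, beside 44.3% and 36.4%, whereas without it 19.8% of all genes were called lower in males and 11.5% in females. An error in the scaling of a library moves all of its genes together. Scaling differences between replicates enter the spread that limma uses per cell. All genes of a library share them, so the genes do not estimate them independently. The per-cell p-values still treat that spread as known without error, so very small ones overstate the precision of 3 libraries per group. In male soma the SD of Ehmt1 was 0.55 per cell and 0.02 by read depth. An error common to all 3 libraries of a group does not enter the limma p-values.

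**Figure D3:**
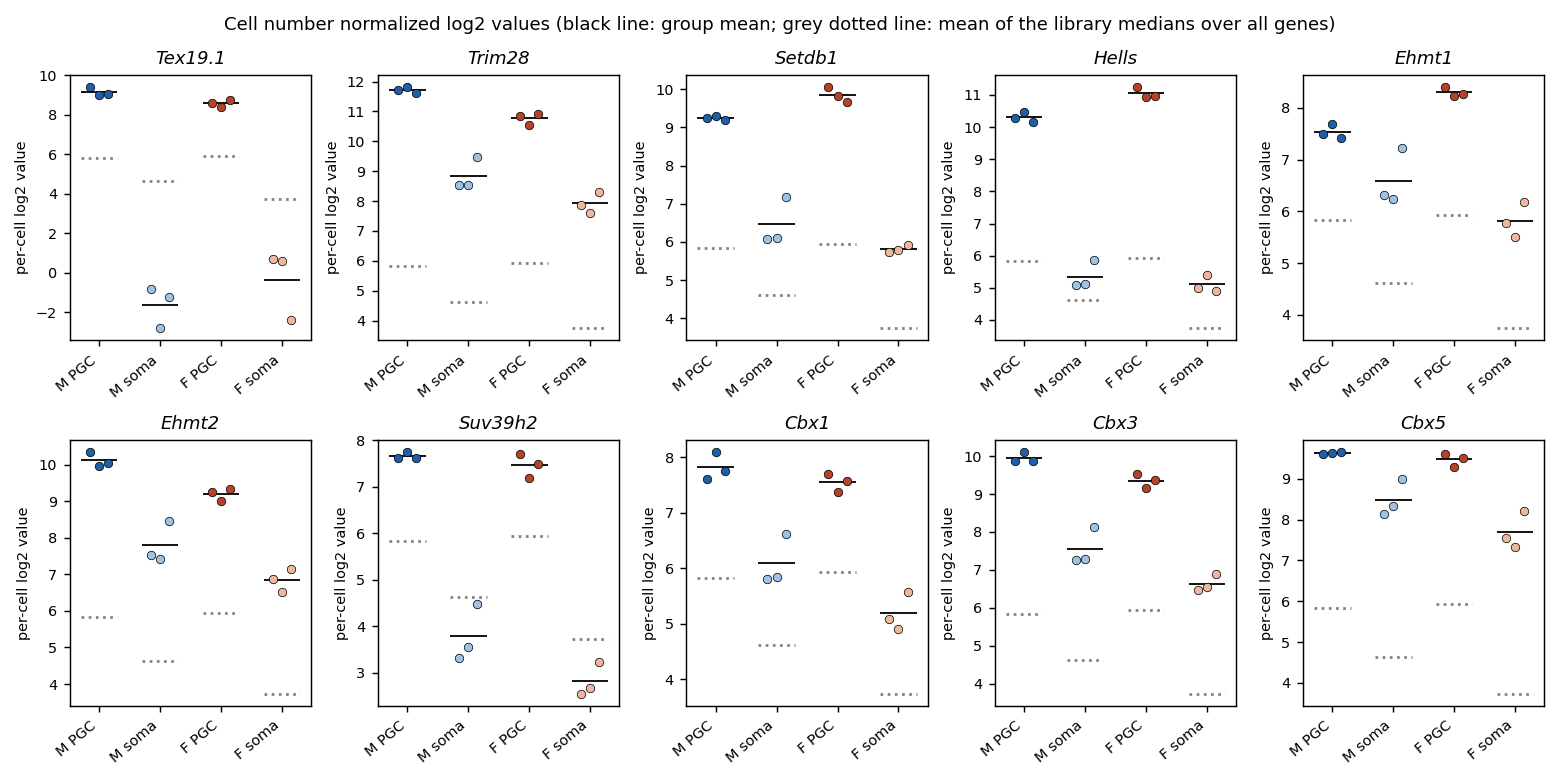
Per-cell log2 values (vertical axes, cell number table) of the 10 genes in each library, points for libraries, black lines for group means of 3 and grey dotted lines for the mean of the library medians over all genes (5.83 in male PGC, 5.94 in female PGC, 4.62 in male soma, 3.74 in female soma). Male soma replicate 3 is the highest of its group for all genes except Tex19.1, and Suv39h2 and Tex19.1 alone lie under the all-gene line in soma.

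The sexes were compared within PGCs and within soma. On the read depth scale Setdb1 (0.45 ± 0.07), Hells (0.59 ± 0.13) and Ehmt1 (0.56 ± 0.07) were higher in female than in male PGCs, and Trim28 (-0.82 ± 0.07), Ehmt2 (-0.78 ± 0.08), Cbx3 (-0.53 ± 0.07) and Cbx1 (-0.24 ± 0.10) were lower. That is 3 called higher and 4 lower, where 32.8% and 32.5% of all genes were. Tex19.1 had a difference of -0.53 ± 0.39 (adjusted p = 0.248), Suv39h2 of -0.19 ± 0.10 (adjusted p = 0.0887) and Cbx5 of -0.16 ± 0.09 (adjusted p = 0.131), none past the test, although each gene's female and male PGC libraries did not overlap on this scale. Voom on the reads called 6 members lower, adding Tex19.1 (-0.64 ± 0.12, adjusted p = 0.000209) and Suv39h2 (-0.23 ± 0.10, adjusted p = 0.0452), and voom on library totals also called Tex19.1 lower (-0.48, adjusted p = 0.00205). A limma fit of the PGC libraries alone called Tex19.1 (adjusted p = 0.00106) and Cbx5 (adjusted p = 0.0243) lower, so the calls of these 3 genes depend on the method. The call for Cbx1 (adjusted p = 0.0385) was lost without male PGC replicate 2 or 3 and without each of the female PGC libraries, with differences from -0.13 to -0.34 over all 6 omissions. It was also lost with voom on library totals (-0.16, adjusted p = 0.247), after quantile normalization (-0.17, adjusted p = 0.107), in a fit of the PGC libraries alone (adjusted p = 0.0639) and with variance without trend (adjusted p = 0.0611).

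Per cell, 4 of these sex differences in PGCs passed the test. Hells (0.75 ± 0.28, adjusted p = 0.0183) and Ehmt1 (0.76 ± 0.28, adjusted p = 0.0178) were higher in female PGCs, where 24.3% of all genes were, and Trim28 (-0.96 ± 0.30) and Ehmt2 (-0.93 ± 0.28) were lower, where 17.7% were. The all-gene median was 0.08. The call of Hells was lost without male PGC replicate 1 (0.75) or 3 (0.69) or female PGC replicate 1 (0.66), and that of Ehmt1 without those and without female PGC replicate 3 (0.78). The per-cell values of Hells were 10.29, 10.46 and 10.17 in male PGC and 11.26, 10.94 and 10.98 in female PGC, which do not overlap.

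In soma the read depth values of 8 members did not pass the test between the sexes. Tex19.1 (1.27 ± 0.39, adjusted p = 0.0287) and Hells (0.48 ± 0.13, adjusted p = 0.0142) were higher in female soma, where 13.3% of all genes were called higher and 11.0% lower. Tex19.1 overlapped between the groups, and its call was lost without male soma replicate 2 (1.06) or 3 (1.19), without female soma replicate 1 (0.96) or 2 (0.96), and with voom on the reads (2.32, adjusted p = 0.168). With female soma replicate 3 as the only female soma library the difference was 0.03 for Tex19.1 and 0.16 for Hells, given as values because 1 library chosen after its markers were seen has no spread of its own. The call of Hells was also lost without male soma replicate 3 (0.42, adjusted p = 0.0609). Per cell, Tex19.1 was called higher in female soma (1.24 ± 0.37), where 2.86% of all genes were, and 8 members were called lower, where 63.6% of all genes were and the all-gene median was -0.86. Their differences ran from -0.65 (Setdb1) to -0.96 (Suv39h2), and that of Hells was -0.24 ± 0.28 (adjusted p = 0.43). The per-cell call of Tex19.1 was lost without male soma replicate 2 (0.65) or 3 (1.44) and without female soma replicate 1 (0.71) or 2 (0.77), and 5 and 4 members were called lower without female soma replicate 1 and 2. With female soma replicate 3 alone, the per-cell value of Tex19.1 was -0.78.

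**Figure D4:**
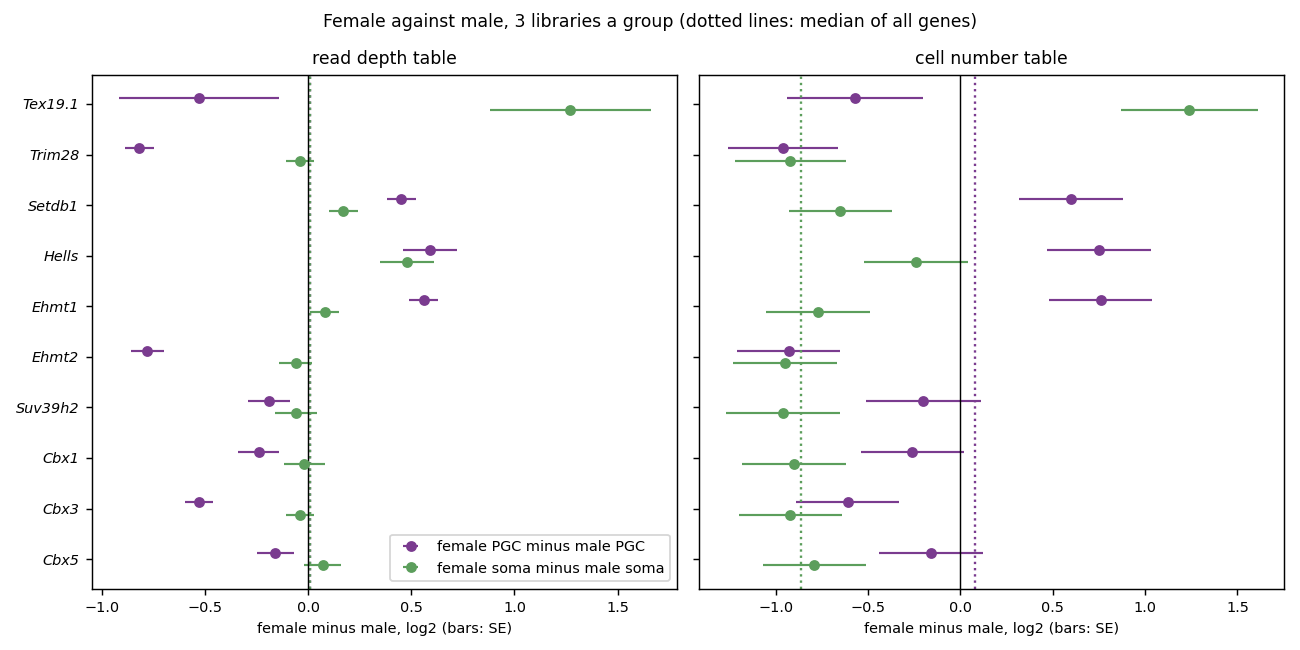
Female minus male differences (log2, horizontal axes, SE bars, 3 libraries per group) of the 10 genes in PGCs (purple) and in soma (green), on the read depth scale at left and per cell at right, with dotted lines at the all-gene medians. At left Trim28, Ehmt2 and Cbx3 lie well below 0 and Setdb1, Hells and Ehmt1 above 0 in PGCs, while most soma points lie near 0, and at right 9 of the 10 soma points lie below 0.

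The difference between the sexes in the germ-to-soma contrast was tested directly as an interaction. On the read depth scale it was called for 6 members, with 2 higher in females, where 27.9% of all genes were, and 4 lower, where 28.9% were. Setdb1 (0.27 ± 0.10, adjusted p = 0.0382) and Ehmt1 (0.48 ± 0.10, adjusted p = 0.00109) had a germ-to-soma difference that was higher in females, for Ehmt1 with a fall in male PGCs (-0.44) and no call in female PGCs (0.05). In Trim28 (-0.78 ± 0.10), Ehmt2 (-0.72 ± 0.11), Cbx3 (-0.49 ± 0.09) and Tex19.1 (-1.80 ± 0.55, adjusted p = 0.0126) it was lower in females. The value for Tex19.1 was -0.56 with female soma replicate 3 alone, a single library that allows no spread of its own. That for Setdb1 missed the threshold without any of 8 of the 12 libraries, with a range of 0.22 to 0.35 over all omissions. Hells (0.11 ± 0.18, adjusted p = 0.617), Suv39h2 (-0.13 ± 0.13), Cbx1 (-0.22 ± 0.14) and Cbx5 (-0.23 ± 0.13) did not pass.

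Per cell the same interaction ran with the larger overall shift in females, an all-gene median of 0.91. Setdb1 (1.25 ± 0.39), Hells (1.00 ± 0.39) and Ehmt1 (1.54 ± 0.40) were called higher in females, where 42.8% of all genes were, and Tex19.1 (-1.82 ± 0.53) lower, where 5.16% were. After median centring the values were 0.01 for Hells and -1.03 for Trim28, and 1 member was called higher and 4 lower, beside 24.8% and 29.6% of all genes. The call of Hells was lost without male PGC replicate 1 (0.99) or 3 (0.93), female PGC replicate 1 (0.90) or female soma replicate 1 (0.94) or 3 (0.90). That of Tex19.1 was lost without male soma replicate 2 (-1.22) or 3 (-2.01) or female soma replicate 1 (-1.29), and its value was 0.20 with female soma replicate 3 alone.

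Ratios between paralogs within a library do not depend on the scaling of the library. Among reads per exon base, Cbx3 made up 53.9% ± 0.903 (SD, n = 3) of the HP1 family in male PGC and 46.8% ± 0.507 in female PGC, against 36.1% ± 1.25 in male soma and 34.5% ± 3.77 in female soma. Cbx5 made up 28.8% ± 2.21 and 34.2% ± 0.523 in male and female PGC, against 45.7% ± 1.55 and 47.8% ± 3.73 in soma, and Cbx1 between 17.3% and 19% in all groups. Thus, per exon base, the leading HP1 transcript was Cbx3 in PGCs and Cbx5 in soma, in each of the 12 libraries. That lead depends on the exon lengths used, 5992 bases for Cbx3 and 9006 for Cbx5. In reads not scaled to length, Cbx5 exceeded Cbx3 in female PGC replicates 1 (8180 against 7681), 2 (2257 against 2042) and 3 (3974 against 3548). Cbx3 still led in each male PGC library. The log2 difference of a ratio between PGC and soma does not depend on these lengths. The log2 ratio of Cbx5 to Cbx3 was lower in PGCs by -1.09 averaged over the sexes (two-sided exact permutation within sex, p = 0.005, the smallest that 400 arrangements allow, adjusted p = 0.00833 over 5 ratios), with -1.25 in males and -0.93 in females. The ratios of Cbx1 to Cbx3 (-0.50) and of Cbx1 to Cbx5 (0.59) had the same exact p, and the exact test within a sex cannot go below 0.1. How reads shared with the 8 pseudogenes of Cbx3 were counted bears on its share and is not stated in the sources used here.

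The balance of Ehmt1 to Ehmt2 set male PGCs apart. Per exon base there were 0.112 reads of Ehmt1 for each read of Ehmt2 in male PGC (0.0939 to 0.14), against 0.291 in male soma (0.287 to 0.297), 0.364 in female PGC (0.325 to 0.393) and 0.328 in female soma (0.313 to 0.34). No male PGC library overlapped any other group. The log2 difference between PGC and soma was -1.37 in males and 0.15 in females, and -0.61 over both sexes (exact permutation p = 0.09, adjusted p = 0.09). Between female and male PGCs it was 1.69, with an exact p of 0.1, the smallest that 3 against 3 allows.

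The balance of Suv39h2 to its X-linked paralog Suv39h1 also set male PGCs apart. Suv39h1 stood at 109.9, 105 and 106 CPM in male PGC and 312, 294 and 270.2 in female PGC, against 84.7, 73.1 and 73 in male soma and 78.2, 93.3 and 77.3 in female soma. It rose in PGCs of both sexes, by 0.46 ± 0.07 in males and 1.44 ± 0.07 in females on the read depth scale, and was higher in female than male PGCs by 1.04 ± 0.07 (adjusted p = 5.24e-08, limma). Suv39h2 was close to Suv39h1 in male PGC at a ratio of 1.08 per exon base (0.987 to 1.18), against 0.371 in female PGC, 0.316 in male soma and 0.281 in female soma. That near equality depends on the exon lengths used, 4410 bases for Suv39h2 and 5270 for Suv39h1. In reads not scaled to length, Suv39h1 exceeded Suv39h2 in male PGC replicates 1 (2299 against 1898), 2 (2571 against 2534) and 3 (1876 against 1714). The log2 ratio was higher in PGC than soma by 1.09 over both sexes (exact permutation within sex, p = 0.01, adjusted p = 0.0125), with 1.78 in males and 0.40 in females. Female PGC libraries (0.328 to 0.413) overlapped female soma (0.255 to 0.342), and the female against male PGC difference of -1.54 had an exact p of 0.1.

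**Figure D5:**
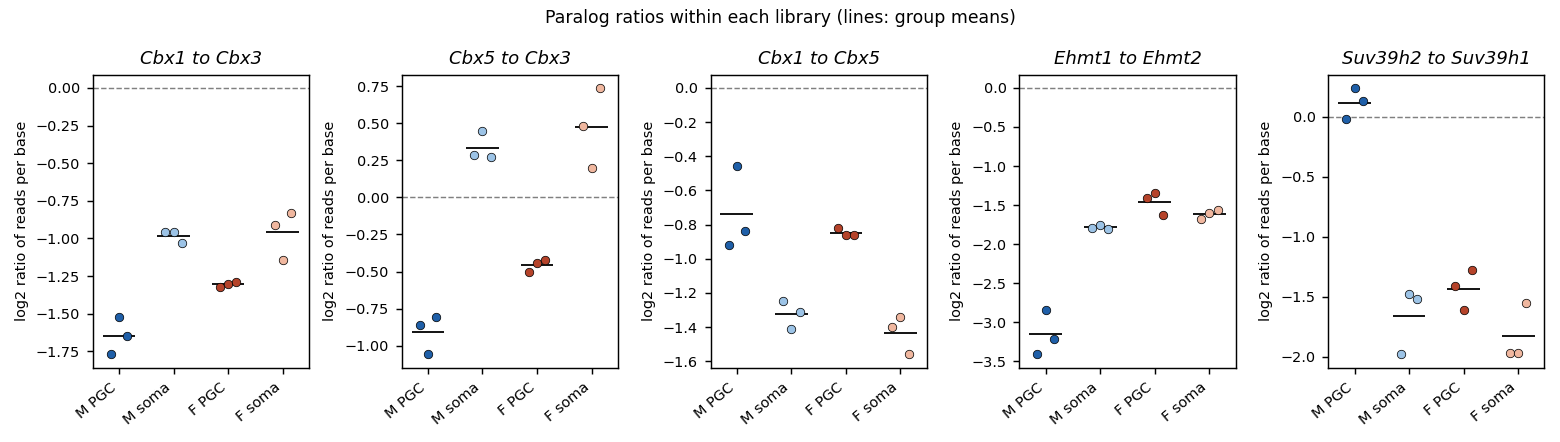
Log2 ratio of reads per exon base (vertical axes) between paralogs in each library, points for libraries, lines for the means of 3 and a dashed line at 0, where present, for equal reads. Per exon base, Cbx5 exceeds Cbx3 in all soma libraries and in no PGC library, Ehmt1 to Ehmt2 is lowest in the 3 male PGC libraries, and Suv39h2 to Suv39h1 is near 0 only there.

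Related genes were counted in 10 lists, without the members themselves, of which 94 of 103 genes were in the tables. On the read depth scale 60 rose and 17 fell in male PGCs and 61 rose and 19 fell in female PGCs, with medians of 0.55 and 0.43, beside 39.1% of all genes called higher and 43.7% lower in males and 38.7% and 42.3% in females. The lists are short, and their counts are read against these shares. All 5 genes of the list named for the HUSH complex, which silences retrotransposons with SETDB1, rose in both sexes, with medians of 1.04 and 1.40. The H3K9-methyl reader of that complex, Mphosph8, rose by 2.22 ± 0.13 in males and 2.30 ± 0.13 in females. Fam208b, also on the list, rose by 1.22 ± 0.08 and 1.75 ± 0.08. Of 9 H3K9 methyltransferase partners 7 rose and 1 fell in each sex, led by Atf7ip2 (2.73 ± 0.31 and 3.50 ± 0.31), a relative of the SETDB1 cofactor ATF7IP, and Setdb2 (1.53 ± 0.20 and 2.55 ± 0.20). Prdm2, the most abundant of that list, rose by 0.36 ± 0.08 and 0.20 ± 0.08.

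All 13 genes listed as TEX19 partners and germ line silencers rose in both sexes, with medians of 5.09 and 3.51. Mov10l1, a helicase of the piRNA pathway, rose by 6.80 ± 0.52 in males and 4.85 ± 0.52 in females and Mael by 6.30 ± 0.57 and 4.85 ± 0.57, while Ubr2, the ubiquitin ligase that binds TEX19.1, rose by 0.41 ± 0.08 and 0.33 ± 0.08. Of 10 genes of DNA methylation maintenance and its partners 5 rose in each sex and 2 fell in males and 4 in females, in females close to the shares over all genes. Dnmt1, the maintenance methyltransferase, rose by 0.85 ± 0.06 and 1.19 ± 0.06 and Cdca7l by 1.54 ± 0.09 and 1.16 ± 0.09, whereas the de novo enzyme Dnmt3a fell by 1.07 and 1.64.

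Of 10 HP1 partners 6 rose and 2 fell in males and 7 rose and 1 fell in females, with Lbr, the lamin B receptor, at 1.59 ± 0.11 and 0.95 ± 0.11, Pogz at 0.88 ± 0.09 and 0.23 ± 0.09 and Hp1bp3 at -1.46 ± 0.06 and -1.60 ± 0.06. Of 8 KRAB zinc finger genes 3 rose and 3 fell in males and 4 and 3 in females, about the shares over all genes. Zfp57, which protects imprinted methylation, fell by 4.62 and 3.63, Zfp445 fell by 0.64 and 0.95, and Zfp819 rose by 3.22 ± 0.13 and 1.34 ± 0.13. Of 16 histone chaperone and H3.3 genes 10 rose in each sex and 1 fell in males and 3 in females, with Asf1b at 1.16 ± 0.16 and 2.10 ± 0.16, Morc3 at 1.34 ± 0.06 and 1.11 ± 0.06 and H3f3b at -0.09 ± 0.07, not past the test, and -0.42 ± 0.07.

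Of 10 H3K9 demethylases, which oppose the methyltransferases, 5 rose and 4 fell in males and 4 and 3 in females, again near the shares over all genes. Kdm1a (LSD1) rose by 1.24 ± 0.06 and 0.40 ± 0.06, whereas Phf2 fell by 2.28 and 1.93 and Kdm4a by 0.76 and 1.11. Of 3 H4K20 methyltransferases 0 rose and 2 fell in males, and 1 rose and 1 fell in females: Suv420h2 stood at -0.33 ± 0.09 in males and 0.70 ± 0.09 in females, Setd8 at -0.80 ± 0.09 and -0.34 ± 0.09, and Suv420h1 at 0.15 ± 0.07 and 0.13 ± 0.07, neither past the test. Of 10 cytosolic restriction genes 6 rose and 2 fell in males and 5 and 3 in females, with Upf1, a factor of nonsense-mediated decay, at 1.16 ± 0.06 and 0.91 ± 0.06 and Apobec3, a cytidine deaminase, at -1.55 ± 0.14 and -1.77 ± 0.14. Per cell, 82 of the 94 genes were called higher and 3 lower in male PGCs and 87 and 2 in female PGCs, where 64.0% and 77.2% of all genes were called higher and 19.8% and 11.5% lower, with medians of 2.22 and 3.00 beside all-gene medians of 1.42 and 2.36.

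Across the 12 libraries of the read depth table, which share the 4 groups and are not independent points, the members fell into different patterns. Hells was most like Setdb1 (Pearson's r = 0.988) and Tex19.1 (0.969) among the members, Trim28 most like Cbx3 (0.977), and Ehmt1 and Ehmt2 ran opposite to each other (-0.925). For Ehmt1 and Ehmt2 male PGC stood apart, with read depth means of 10.39 and 12.74. In male soma, female PGC and female soma the means lay close together, at 10.83, 10.95 and 10.90 for Ehmt1 and 12.09, 11.96 and 12.03 for Ehmt2. Over all genes, the pairs nearest to each member were Rpl10l (0.997) and Pcgf6 (0.996) for Tex19.1, Senp8 and Herc3 (both 0.997) for Hells, Polr3a and Parg (both 0.996) for Suv39h2, Atr (0.997) and Eif4enif1 (0.995) for Setdb1, and Clpx (0.994) and Rsl24d1 (0.993) for Trim28. Ehmt2 was nearest to Supt6 (0.988) and Rbbp6 (0.982), Ehmt1 to Klhl22 (0.979) and Zfp777 (0.978), Cbx3 to Hspa14 (0.987) and Shmt1 (0.984), and Cbx5 to Dcp2 (0.971) and Msl2 (0.961). Cbx1, whose groups overlapped, reached 0.877 with Cep68 and Mrps2.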

How the data were processed

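RNA of 12 libraries from sorted E13.5 mouse gonads was measured by sequencing. Per the labels' protocols, ERCC control RNA was added in proportion to sorted cells before a directional library kit for messenger RNA was used. The submitters' processing notes name build mm10, TopHat2 2.0.9, Trim Galore 0.4.0 and HTSeq 0.6.1p1, and for later steps limma 3.28.14, edgeR 3.14.0, DESeq2 1.12.3 and R 3.3.0. Strand setting, annotation and gene filter are not stated in the sources used here.

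The authors deposited 2 tables of log2 values over 12845 genes, normalized to cell number and to read depth. The abbreviation CNN was read as cell number normalization, and the transform of the read depth table is not stated in the sources used here. In every library 100% of the cell number values equalled log2 of a whole number of reads plus 0.5 times a library constant, within 0.001 reads. These reads gave depths, CPM and, with exon lengths from GENCODE vM21 (12387 symbols matched), RPKM and paralog ratios. Depth limits precision to counting error at few reads, as for Tex19.1 in soma.

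Groups and replicate numbers came from the titles. All genes were fitted with limma 3.58.1 in R 4.3.3 (4 group means, intensity trend, Benjamini-Hochberg adjustment over 12845 genes, threshold 0.05). The estimated prior degrees of freedom were infinite for the cell number table and 5.51 for the read depth table. With an infinite prior, the per-cell SE and p-values use the spread expected at a gene's level and not the gene's own. Ratios were tested with two-sided exact permutation tests over libraries. The labels do not say that equal replicate numbers share an animal, litter or day, so the numbers were not taken to pair libraries. Same-numbered libraries did not deviate together (0 of 18 pairs had a correlation over 0.1, range -0.361 to 0.071). With so few libraries per group, that check cannot settle whether they were paired. No library was a copy of another of its group: chi-square per degree of freedom was 5.43 to 30.4 between replicates. No batch is labelled.

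Named genes are all members, from each list the gene of highest level and the 2 of largest absolute change on the read depth scale, the 2 genes most like each member, and label checks. Suv39h1 was also followed as the paralog of Suv39h2. Members, lists and tests were chosen with earlier results of these data known, so none is independent support for a pattern. Alternatives were leaving out each library, the lowest 25% of genes or changes under a log2 of 1, a replicate block, median centring, quantile normalization, array weights, variance estimates that were robust or without trend, only the compared groups and voom on the reads. Female soma replicate 3 alone was added after the data were seen. The fits were tested on simulated data. Figures used matplotlib 3.10.9, and tables numpy 2.4.6, pandas 2.3.3 and Python 3.11.15.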

Additional observations from a re-analysis of the deposited data

Results flagged for a closer look

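The germ-to-soma difference was unequal between the sexes by the limma interaction test for several members, given as female minus male on the log2 scale. With read depth values these were Tex19.1 at -1.80, Trim28 at -0.78, Setdb1 at 0.27, Ehmt1 at 0.48, Ehmt2 at -0.72 and Cbx3 at -0.49. Per cell they were Tex19.1 at -1.82, Setdb1 at 1.25, Hells at 1.00 and Ehmt1 at 1.54, beside an all-gene median of 0.91. With female soma replicate 3 alone the read depth value of Tex19.1 was -0.56. Groups of 3 were not screened for single outlying values, and the effect of leaving out each library stands beside the results above.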

How the results depend on the processing

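Of 1760 member values recomputed under the alternatives, 1515 kept their direction and their side of the threshold, 139 lost and 32 gained a call, and 74 changed sign, most of them values near 0 or per-cell values after a rescaling that removes the shift between libraries. All 5 paralog ratios kept both under every setting run. With replicate number as a block 10 members rose per cell in PGCs of each sex, and the only calls that differed were 2 per-cell differences between male and female PGCs that passed in addition (3 members higher and 3 lower). The labels share replicate numbers across groups but do not say that these pair libraries. The libraries did not deviate together by number, which does not settle whether they were paired.

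Requiring a log2 change of at least 1 left 0 members higher and 0 lower between PGCs of the sexes on both scales, 0 lower in male or female PGCs against soma by read depth, 1 higher (read depth) and 0 lower (per cell) between soma of the sexes, and 0 higher and 1 lower in the read depth interaction. Array weights gave 6 higher in the per-cell interaction and 2 lower in female PGCs by read depth. Robust variance gave 0 higher per cell and 1 by read depth between soma and 0 lower in the per-cell interaction, and variance without trend gave 1 higher per cell between PGCs, 0 higher per cell between soma, and in the interaction 1 higher by read depth and 0 lower per cell. Fitting only the compared groups gave between soma 0 higher and 0 lower per cell and 1 higher by read depth, and 4 lower per cell between PGCs. Both voom fits gave 1 higher between soma, and voom on the reads raised the members lower in female than male PGCs from 4 to 6, adding Tex19.1 (adjusted p = 0.000209) and Suv39h2 (adjusted p = 0.0452). With female soma replicate 3 alone, 0 members were called between soma in either direction on either scale and 0 in the per-cell interaction; that group then holds 1 library, assumed to vary like the other groups, so fewer samples lower these counts by construction.

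Median centring gave 1 higher on each scale and 4 lower per cell in the interaction, 1 lower per cell in PGCs of each sex, 1 lower by read depth in male PGCs, 4 lower per cell between PGCs and 0 lower per cell between soma. Quantile normalization gave per cell 5 higher and 2 lower in female PGCs, 2 lower in male PGCs, 2 higher and 0 lower between soma and 3 lower in the interaction, and 2 lower in female PGCs by read depth. Leaving out 1 library gave per cell 0 to 2 higher between PGCs, 0 to 1 higher and 4 to 8 lower between soma and 0 to 1 lower in the interaction, and by read depth 0 to 2 higher between soma, 1 to 2 higher in the interaction and 1 to 2 lower in male PGCs.

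These values changed sign. After median centring, per cell: Cbx5 at -0.43 in female PGCs and -0.06 in male PGCs, Ehmt1 at -0.26 in male PGCs; between soma Cbx5 at 0.10, Ehmt1 at 0.11, Hells at 0.64 and Setdb1 at 0.24; in the interaction Cbx1 at -0.36, Cbx3 at -0.68, Cbx5 at -0.36, Ehmt2 at -0.98 and Suv39h2 at -0.23. By read depth, Cbx1 stood at 0.15 and Ehmt2 at 0.13 in female PGCs. After quantile normalization, per cell, female PGCs had Cbx1 at -0.19, Cbx5 at -0.82, Ehmt1 at -0.14 and Ehmt2 at -0.30, and male PGCs Cbx5 at -0.64 and Ehmt1 at -0.68. Cbx5 stood at 0.01 between PGCs, and between soma Cbx1 was at 0.05, Cbx3 at 0.07, Cbx5 at 0.20, Ehmt1 at 0.21, Ehmt2 at 0.07, Hells at 0.76, Setdb1 at 0.35 and Trim28 at 0.06. In the interaction Cbx1 was at -0.27, Cbx3 at -0.52, Cbx5 at -0.19 and Ehmt2 at -0.83. By read depth Ehmt1 was at -0.13 in female PGCs, Cbx5 at 0.02 between PGCs, and Cbx1 at 0.03, Cbx3 at 0.05, Ehmt2 at 0.03 and Trim28 at 0.03 between soma. Array weights gave Ehmt2 -0.28 per cell and Suv39h2 0.01 by read depth in the interaction, and voom on library totals gave Suv39h2 0.04 there and Cbx1 0.00 between soma. With female soma replicate 3 alone, Tex19.1 was at -0.78 between soma and 0.20 in the interaction per cell, Ehmt2 at -0.29 in that interaction, Ehmt1 at -0.07 in female PGCs by read depth, and Cbx1 at 0.11, Ehmt2 at 0.01, Suv39h2 at 0.08 and Trim28 at 0.08 between soma. Leaving out 1 library, values crossed 0 by read depth for Cbx1 (-0.10 to 0.01) and Ehmt1 (-0.01 to 0.10) in female PGCs, for Cbx1 (-0.09 to 0.02), Cbx3 (-0.07 to 0.00), Cbx5 (-0.05 to 0.15), Ehmt2 (-0.09 to 0.01), Suv39h2 (-0.13 to 0.02) and Trim28 (-0.10 to 0.02) between soma and for Hells (-0.05 to 0.29) in the interaction, and per cell for Hells between soma (-0.40 to 0.01) and for Ehmt2 (-0.31 to 0.21) and Trim28 (-0.35 to 0.15) in the interaction. Causes were not tested.

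Depth limits Tex19.1 in soma, where 3 to 41 reads stand behind a value. The per-cell scale rests on added control RNA that is not among the genes analysed here, and an error of that scale is shared by all genes of a library. Groups of 3 cannot pass an exact test within a sex, and neighbours, copies and strand of 6 members limit their levels.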
